A study of Drosophila melanogaster with 6 samples.

Results

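The peaks described here lie on the mapped heterochromatin scaffolds of Drosophila melanogaster, in a list of binding regions from chromatin immunoprecipitation followed by sequencing (ChIP-seq) of whole larvae. Every region whose sequence name ends in Het was taken (2LHet, 2RHet, 3LHet, 3RHet, XHet and YHet), which gave 540 of the 13745 peaks in the list, or 3.93% (95% Wilson interval 3.62 to 4.27%). The membership therefore rests on the place of a peak, and neither its width nor its score was used.

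The series holds 3 libraries of anti-tango ChIP DNA and 3 libraries of input DNA. Both kinds came from wandering larvae of the third instar (L3 in the labels), reared at 25 °C and cross-linked in 1.8% formaldehyde for 15 min. All 6 libraries share the strain Y cn bw sp, with the sex labelled Unknown. The alleles named for every library include y[1] and also oc[R3.2], next Gr22b[1] and also Gr22d[1], next cn[1] as well as CG33964[R4.2], next bw[1] and also sp[1]. They further include LysC[1] as well as lab[R4.2], next MstProx[1] and also GstD5[1], and at last Rh6[1]. The antibody was a crude mouse monoclonal against tango, while the series is titled TCF, so the protein behind the peaks is known only from labels that differ. Chromatin from whole larvae mixes all tissues, and the authors gave 1 list for the 6 libraries with a single score per peak. Read depth is unknown and the list gives no value per replicate, so no peak has a replicate error here and no difference below was tested.

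Heterochromatin is the densely packed part of the genome around the centromeres and on most of the Y chromosome. It is rich in transposable elements and satellite repeats, is poor in genes, and in flies is marked by methylated lysine 9 of histone H3 and the protein HP1. In release 5 of the fly genome, a scaffold such as 2LHet is sequence assigned to the heterochromatin of an arm but not joined to that arm. Tango, the fly relative of mammalian ARNT, binds DNA with partners of the bHLH-PAS family such as Trachealess and Single-minded, and TCF, also called Pangolin, carries the Wingless signal to its target genes.

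The heterochromatin peaks were mostly narrow, low in score and set in tight groups, with a handful of strong regions among them. They were 404 bp wide at the median (interquartile range 282 to 687 bp), and 467 of the 540 were at most 1 kb wide. They scored 17.0 at the median (interquartile range 12.3 to 24.3), in units of the authors' peak caller that the sources do not state. Scores of 100 or more belonged to 16 peaks, or 2.96% (95% Wilson interval 1.83 to 4.76%), against 29.2% of the whole list. Most of the list (75.8%) lay on the sequence Uextra, where this share was 34.5%. On the centromere side of the large arms, defined below, it was 4.29% (2.83 to 6.48%), and on chromosome 4 it was 1.61% (0.285 to 8.59%). The median score of the whole list, 57.7, was reached by 27 peaks.

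The 540 peaks were spread unevenly over the 6 scaffolds. The scaffold 2RHet, assigned to the right arm of chromosome 2, held 192 peaks (35.6% of them), 3LHet held 170 (31.5%) and 3RHet held 125 (23.1%). The remaining peaks were 41 on 2LHet, 10 on XHet and 2 on YHet. The length of a scaffold was taken as the stretch between the start of its first peak and the end of its last one, called its span, which understates the true length. These spans were 356 kb on 2LHet, 3283 kb on 2RHet, 2511 kb on 3LHet, 2406 kb on 3RHet, 204 kb on XHet and 133 kb on YHet.

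Relative to its span, 2LHet carried 115 peaks per Mb (95% exact interval 82.7 to 156). The next scaffolds were 3LHet with 67.7 peaks per Mb (57.9 to 78.7), 2RHet with 58.5 (50.5 to 67.4) and 3RHet with 51.9 (43.2 to 61.9). The interval of 2LHet did not overlap those of these 3 scaffolds, whose own intervals overlapped. XHet had 49.1 peaks per Mb (23.5 to 90.3) and YHet had 15.0 (1.82 to 54.3), both on small counts. The interval of XHet overlapped all others, and that of YHet lay below those of 2LHet and 3LHet. However, YHet has only 2 peaks, which also set its span. These intervals cover counting error only and treat peaks as independent, although most of them stood in groups. With neighbours at a gap of up to 500 bp joined, 2LHet had 24 regions, or 67.4 per Mb (43.2 to 100), against 106 or 32.3 per Mb (26.4 to 39.1) on 2RHet, 97 or 38.6 per Mb (31.3 to 47.1) on 3LHet and 77 or 32.0 per Mb (25.3 to 40.0) on 3RHet, so that its interval then overlapped that of 3LHet. With gaps of up to 10 kb joined, 2LHet had 11 groups, or 30.9 per Mb (15.4 to 55.3), and its interval overlapped those of all other scaffolds.

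**Figure D1:**
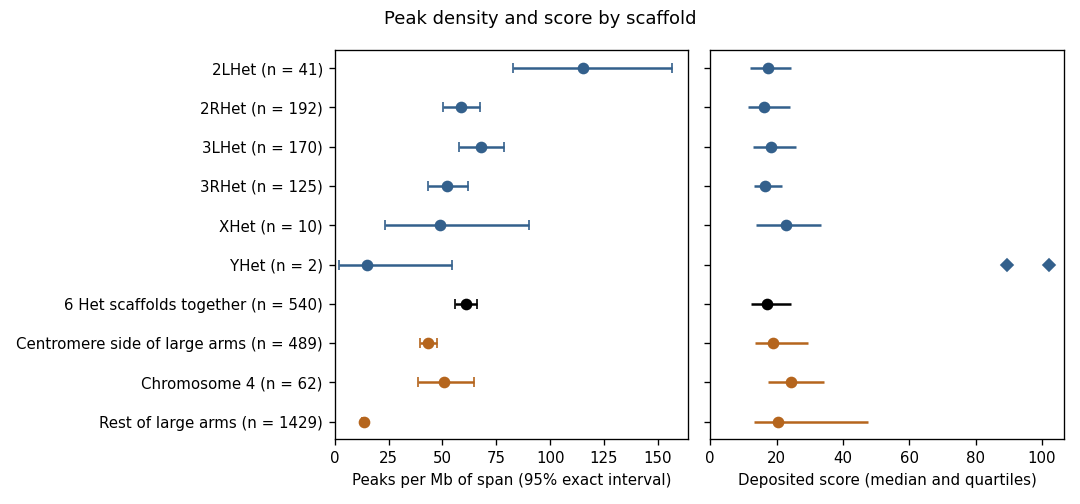
Left, peaks per Mb of span for each scaffold, the 6 scaffolds together and 3 sets of peaks on chromosome arms, with 95% exact intervals for counting error; right, median deposited score with its quartiles (both peaks as diamonds for YHet). The density was 115 peaks per Mb on 2LHet and 13.5 on the rest of the large arms, while the medians of score of the first 5 scaffolds lay between 16.1 and 23.0.

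Peaks took up 10.9% of the span of 2LHet, 4.02% of 2RHet, 3.88% of 3LHet, 3.12% of 3RHet and 2.54% of XHet. On YHet they covered 711 bp, or 0.534% of the stretch between its outermost peaks. Widths were alike on the 3 large scaffolds, with medians of 395 bp on 2RHet (interquartile range 285 to 634 bp), 410 bp on 3LHet (283 to 671 bp) and 398 bp on 3RHet (276 to 737 bp). On 2LHet the median was 556 bp (310 to 932 bp), and on XHet it was 347 bp (286 to 634 bp). The lowest width on any scaffold was 201 bp, which is also the lowest width in the whole list, and the shortest gap between neighbours was 50 bp, again as in the whole list.

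Scores were similarly low on the scaffolds with more than 2 peaks. The median score was 17.3 on 2LHet, 16.1 on 2RHet, 18.2 on 3LHet, 16.4 on 3RHet and 23.0 on XHet. The 2 peaks of YHet scored 89.4 and 102, which put them at places 18 and 15 by score among the 540. They lay 132.4 kb apart, at 4475 to 4703 (229 bp) and at 137055 to 137536 (482 bp).

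The heterochromatin scaffolds were set beside peaks on the chromosome arms, first on the centromere side of the large arms, taken as the 10% of the span of 2L, 2R, 3L, 3R and X nearest the centromere. There were 60.7 peaks per Mb (95% exact interval 55.7 to 66.1) on the Het scaffolds, against 43.6 (39.8 to 47.6) on the centromere side of the arms. Chromosome 4, a dot-like chromosome with much heterochromatin of its own, had 50.6 peaks per Mb (38.8 to 64.8) and the rest of the large arms had 13.5 (12.8 to 14.2). These intervals too treat peaks as independent, although 59.4% of Het peaks and 61.3% of those on the centromere side had another within 400 bp. With neighbours within 500 bp joined, the Het scaffolds had 35.4 regions per Mb, but densities of joined regions were not computed for the arms. The median score was 17.0 on the Het scaffolds, against 18.8 on the centromere side, 24.3 on chromosome 4 and 20.4 on the rest of the large arms.

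High scores made up a smaller share of the Het peaks than of those on the rest of the large arms. Of the Het peaks, 6.48% scored 50 or more (95% Wilson interval 4.70 to 8.88%), against 10.2% (7.84 to 13.2%) on the centromere side of the arms and 24.0% (21.9 to 26.3%) on their rest. Chromosome 4 had nearly the same share as the Het scaffolds, 4 of 62 peaks or 6.45% (2.54 to 15.4%). At a score of at least 20 the shares were 38.1% (34.1 to 42.3%) on the Het scaffolds, 46.4% (42.0 to 50.9%) on the centromere side and 51.2% (48.6 to 53.8%) on the rest. Among peaks of 500 bp to 1 kb, 5 of 124 on the Het scaffolds scored at least 100, against 10 of 132 on the centromere side and 98 of 403 on the rest of the large arms. In the same order, the counts were 2 of 190, 1 of 161 and 20 of 479 from 300 to 500 bp. They were 3 of 50, 2 of 44 and 9 of 118 from 1 to 2 kb, and 4 of 17, 4 of 20 and 7 of 33 from 2 to 4 kb. At 4 kb or more they were 2 of 6, 4 of 14 and 6 of 101. The order of the 3 parts thus differed between width classes.

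Gaps between neighbouring peaks on the Het scaffolds ranged from 50 bp to 184 kb. Of the 534 gaps between neighbours, measured from edge to edge, 269 (50.4%) were at most 1 kb, 97 (18.2%) were between 1 and 10 kb, and 168 (31.5%) were longer than 10 kb. On the centromere side of the arms these classes held 56.0%, 12.6% and 31.5% of 486 gaps, and on the rest of the large arms 36.4%, 9.95% and 53.7% of 1427 gaps. Gaps of more than 100 kb made up 3.37% on the Het scaffolds, against 6.58% on the centromere side and 27.5% on the rest of the arms. Of the 540 Het peaks, 438 had another centre within 5 kb (81.1%, 95% Wilson interval 77.6 to 84.2%), against 78.7% on the centromere side, 67.7% on chromosome 4 and 58.8% on the rest of the arms.

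**Figure D2:**
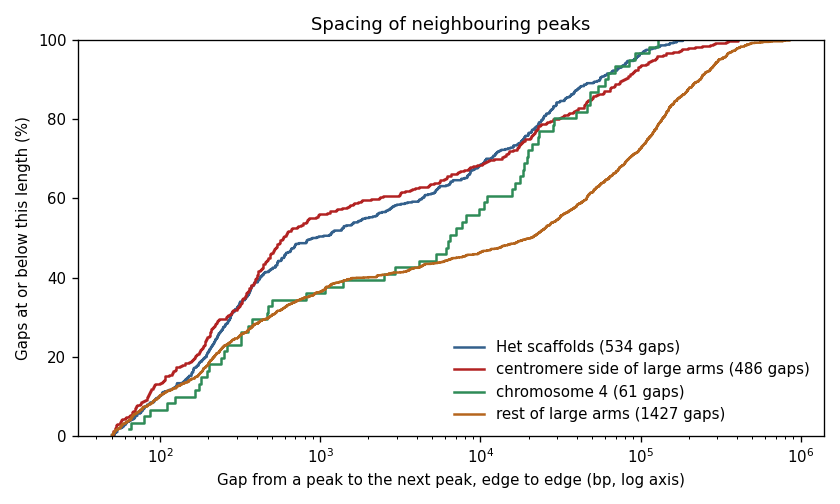
Cumulative share of gaps from each peak to the next on the same sequence, edge to edge, on a log axis in bp. The curve of the Het scaffolds runs near that of the centromere side of the arms, with 50.4% and 56.0% of gaps at or below 1 kb, against 36.4% on the rest of the large arms.

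From centre to centre, neighbours were 1801 bp apart at the median over the 6 scaffolds. This distance was 1538 bp on 3LHet, 1778 bp on 2LHet, 1869 bp on 2RHet and 3279 bp on 3RHet, and the 10 peaks of XHet gave 1596 bp. The share of peaks with another centre within 5 kb was 87.1% on 3LHet (95% Wilson interval 81.2 to 91.3%), 83.3% on 2RHet (77.4 to 87.9%), 78.0% on 2LHet (63.3 to 88.0%) and 72.8% on 3RHet (64.4 to 79.8%). On XHet 7 of 10 peaks had one.

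Joining neighbours at a gap of up to 10 kb left 174 groups. Of these, 68 were single peaks, 31 held 2 peaks and 33 held 5 or more, and those 33 groups held 260 of the 540 peaks (48.1%). Single peaks made up 19.2% of the peaks on 3RHet, 11.5% on 2RHet, 9.41% on 3LHet and 7.32% on 2LHet. Grouped peaks were wider, with a median of 415 bp (interquartile range 300 to 702 bp) against 295 bp (242 to 417 bp) for single ones. Their median scores were 17.0 for the 472 grouped peaks and 16.8 for the 68 single ones.

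The group with most members had 16 peaks and ran from 192689 to 233793 on 2RHet (release 5, like all positions here). Its peaks scored up to 68.5 with a median of 17.9, and they covered 17.5% of its 41105 bp. There were 3 groups of 13 peaks. One lay on 2RHet at 2790097 to 2807376, with scores up to 20.7 and 34.4% of its length covered, and the others on 3LHet at 560946 to 590476 (scores up to 48.7) and at 2160587 to 2187550 (scores up to 87.5). The median scores of the 4 groups lay between 13.4 and 22.6, against 17.0 over all Het peaks. None held a peak of score 100 or more, which only 2.96% of all Het peaks reached. With so few peaks in a group, this lack does not set them apart.

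Some stretches were cut into runs of nearly touching peaks. At a gap of up to 500 bp, 341 of the 540 peaks joined at least 1 other, in runs of up to 8. One run of 8 peaks stood on 3RHet at 1031803 to 1038744, where peaks covered 79.2% of 6942 bp, and another on 2RHet at 2611014 to 2618762, with 76.5% of 7749 bp covered. A run of 5 on 2RHet, at 1350178 to 1359335, was covered to 90.4% over 9158 bp. Whether such a run is 1 broad region split by the peak caller or several separate ones was not tested, since the list holds no signal between peaks.

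Scores of close neighbours resembled each other to a moderate degree. Over the 225 neighbouring pairs at a gap of up to 500 bp, Spearman's rho between the scores of both peaks was 0.34, and over the 141 pairs at 500 bp to 10 kb it was also 0.34. Over the 168 pairs more than 10 kb apart it was 0.04. These are descriptions across peaks that share libraries and scaffolds, so no p is given. The larger score of a pair was a median of 1.42 times the smaller one at up to 500 bp and 1.62 times beyond 10 kb.

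Counted in windows of 100 kb, the fullest stretch was 2.1 to 2.2 Mb of 3LHet with 22 peaks (median score 20.8). It was followed by 0.5 to 0.6 Mb of 3LHet with 19 peaks, 2.8 to 2.9 Mb of 2RHet with 17 and 1.7 to 1.8 Mb of 3RHet with 15. The median window held 5 peaks on 2RHet and on 3LHet and 4 on 3RHet. Windows with 10 or more peaks held 98 of the 170 peaks of 3LHet, 76 of the 192 of 2RHet and 39 of the 125 of 3RHet.

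Long stretches without a peak lay between the groups. The longest was 184 kb on XHet, from 723 to 184683, so that 9 of the 10 XHet peaks stood in 1 group of 19.1 kb at the end of the span, from 184684 to 203793. Others were 169 kb on 2RHet (2442485 to 2611013), 168 kb on 3LHet (81428 to 248937), 124 kb on 3RHet (638794 to 763033) and 73.5 kb on 2LHet (54810 to 128297). Assembly gaps and unmappable repeats within these stretches were not examined, because no release 5 sequence was used.

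**Figure D3:**
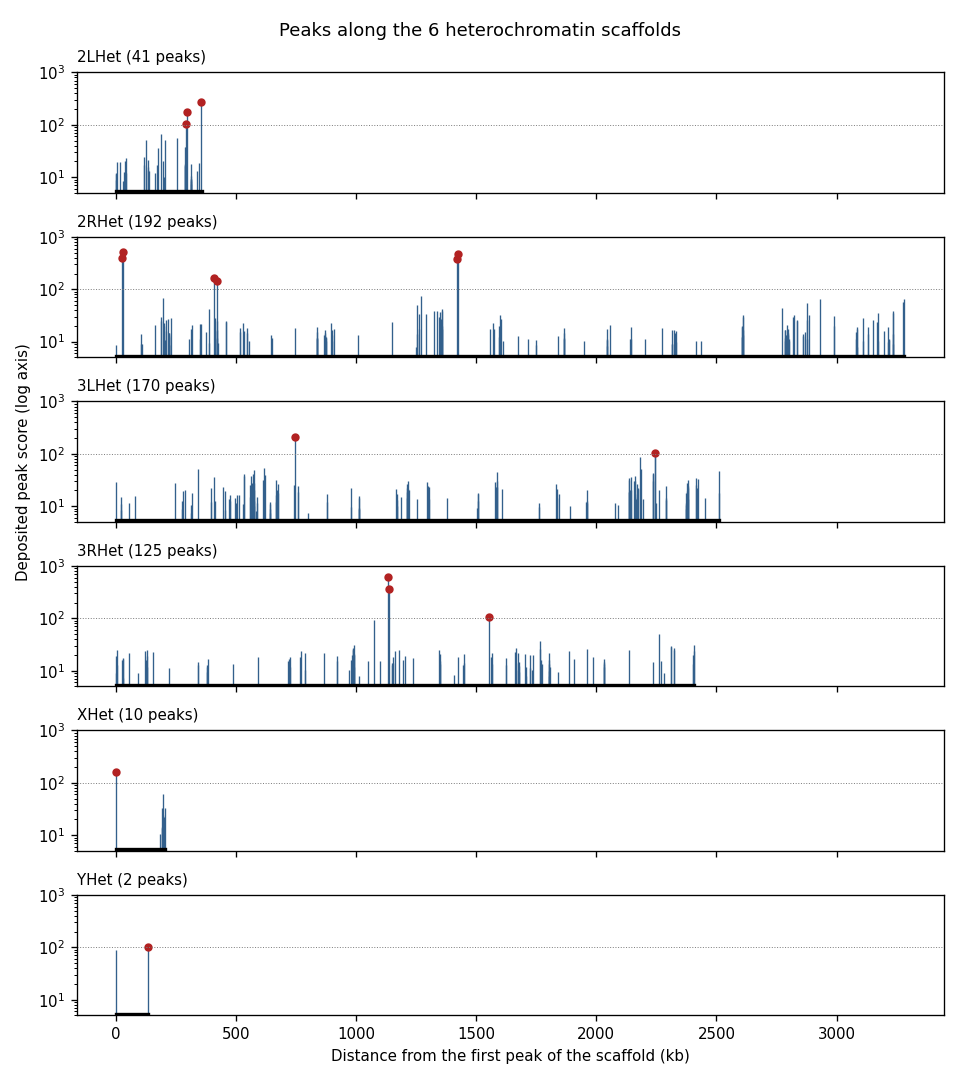
Each vertical line is a peak, placed by its distance in kb from the first peak of its scaffold and drawn up to its deposited score on a log axis; red points mark scores of at least 100 (dotted line) and the black bar is the span. Of the 16 strong peaks, 12 had another centre within 5 kb and 3 stood alone by more than 10 kb. Over all 540 Het peaks these counts were 438 (81.1%) and 68 (12.6%), so they do not set the strong peaks apart. XHet is empty over 184 kb between its first peak and the rest.

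Wider peaks had higher scores on the Het scaffolds, with a Spearman's rho of 0.48 and a Pearson's r of 0.41 across the 540 peaks. Both measures come from the same peak calling. The rho was 0.57 on 3LHet, 0.47 on 2RHet, 0.47 on 3RHet and 0.42 on 2LHet. Below 300 bp the median score was 12.8 and the highest 89.4 (153 peaks), which was the first peak of YHet. From 300 to 500 bp the median was 18.2 (190 peaks) and from 500 bp to 1 kb it was 17.7 (124 peaks). It was 23.8 from 1 to 2 kb (50 peaks), 27.1 from 2 to 4 kb (17 peaks) and 70.8 at 4 kb or more (6 peaks).

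Few peaks made up much of the covered sequence. The 23 peaks of at least 2 kb, 4.26% of the 540, covered 24.3% of all bases under Het peaks. By comparison, peaks of at least 4 kb covered 11.7% of these bases on the Het scaffolds, 24.6% on the centromere side of the arms and 53.6% on the rest of the large arms.

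**Figure D4:**
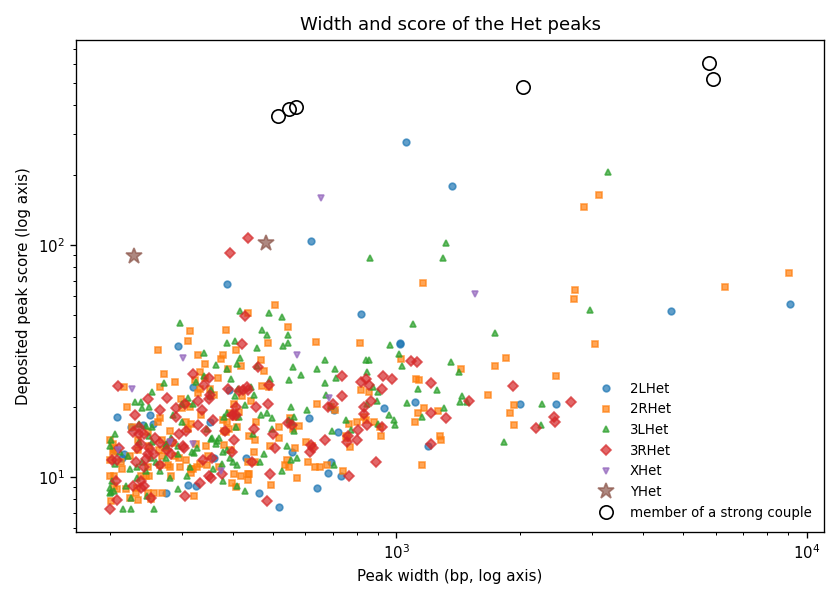
Width in bp and deposited score of the 540 Het peaks, both on log axes, with a marker for each scaffold and open circles for the 6 members of strong couples. The 3 narrow members lie between 361 and 392 in score, and the 3 wide ones between 477 and 611.

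The strongest heterochromatin peaks came in couples of a wide and a narrow peak side by side. The highest score, 611, belonged to a peak of 5790 bp on 3RHet at 1175649 to 1181438, which ranked 31 in the whole list and 5 among peaks on arms and Het scaffolds. Its neighbour at 1181656 to 1182169 was 514 bp wide, scored 361 and began after a gap of 217 bp. On 2RHet a peak of 5923 bp at 31277 to 37199 scored 521, and the one before it, at 30611 to 31178, was 568 bp wide and scored 392 (gap 98 bp).

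A shorter couple stood further along 2RHet. Its wide member, at 1427449 to 1429481, spanned 2033 bp and scored 477. Its narrow member, at 1426703 to 1427248, spanned 546 bp and scored 384, at a gap of 200 bp. These 6 peaks took ranks 1 to 6 by score among the 540. The couples were far from other peaks: the nearest one outside each couple was 14.3 kb away on 3RHet, and 24.3 kb and 61.9 kb away on 2RHet.

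Measured from end to end, the long couples on the Het scaffolds spanned 6521 and 6589 bp and the short one 2779 bp. On the chromosome arms, 13 couples met the same limits (both scores at least 250, a gap of up to 400 bp), and no couple on U or Uextra did. Of those on the arms, 7 spanned 6604 to 6631 bp and 6 spanned 2586 to 3158 bp. The short Het couple, at 2779 bp, was within 20 bp of 3 arm couples, which spanned 2782 bp on 2R, 2790 bp on 2L and 2799 bp on X.

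The narrow member was of similar size in both classes. It was 514 to 568 bp wide on the Het scaffolds with scores of 361 to 392, against 496 to 602 bp with scores of 299 to 460 on the arms. The wide member scored 1.24 to 1.69 times as much as its narrow one on the Het scaffolds and 1.14 to 1.67 times as much on the arms. The narrow member lay on the low-coordinate side in 8 of all 16 couples and on the high-coordinate side in 8. The limits that define a couple were chosen with these widths and scores known, so the counts describe a pattern picked from this list. Which genes, transposons or repeats lie under the couples was not determined here.

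**Figure D5:**
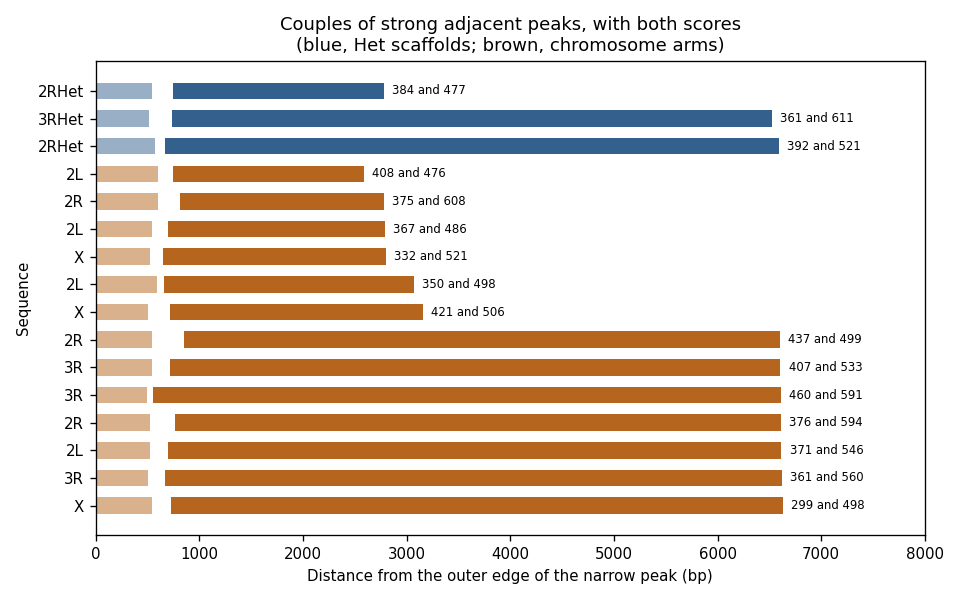
The 16 couples on Het scaffolds (blue) and chromosome arms (brown), each drawn to scale from the outer edge of its narrow peak (pale) to the far end of its wide peak (dark), in bp and turned so that the narrow peak is on the left. Numbers give the score of the narrow and the wide peak. The Het couples span 2779, 6521 and 6589 bp, and those of the arms 2586 to 3158 bp or 6604 to 6631 bp. Both long Het couples are thus slightly shorter than any long one on the arms.

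The 10 strong peaks outside these couples scored between 102 and 276. On 2LHet the strongest was the last peak of the scaffold, at 367886 to 368940, with a width of 1055 bp and a score of 276. The length of 2LHet was not used here, so it is not known whether this peak reaches or passes the end of the scaffold, on which its width and its look-alikes would depend. On the same scaffold a peak of 1364 bp at 306641 to 308004 scored 179 and one of 618 bp at 302046 to 302663 scored 104. Both belonged to a cluster of close neighbours, at gaps of 220 bp and 64 bp.

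On 3LHet the highest score was 206, for a peak of 3281 bp at 744780 to 748060 with a neighbour 209 bp before it, which scored 25.4. This peak was also the widest on 3LHet. The other strong one, of 1322 bp at 2244843 to 2246164, scored 102, just above the limit of 100, and was followed after 207 bp by a peak of 863 bp that scored 87.5. On 2RHet, peaks of 3121 bp at 413812 to 416932 (score 164) and of 2864 bp at 424071 to 426934 (score 145) stood in 1 group of 9. Each of these 2 was followed by 3 or 4 small peaks of score 9.24 to 28.6 at short gaps.

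The remaining strong peaks stood alone. The first peak of XHet, at 69 to 722, was 654 bp wide and scored 159, with no other peak for 184 kb. On 3RHet a peak of 435 bp at 1599126 to 1599560 scored 107, with neighbours 102 kb before and 10.6 kb after it. With the second peak of YHet these were the 3 strong peaks that had no neighbour within 10 kb, as had 68 (12.6%) of all 540 Het peaks. The highest score below the limit, 92.5, belonged to another isolated narrow peak of 3RHet, 394 bp wide at 1119135 to 1119528.

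Whether a strong Het peak had look-alikes elsewhere was described by counting peaks with a width within 5% and a score within 20% of its own. Of the 16 strong peaks, 11 had such a peak on the arms, 12 on Uextra and 6 on U. The same shares over all 540 Het peaks were not counted, and weak peaks had look-alikes too. These counts therefore do not set the strong peaks apart. The wide member of the 3RHet couple had 7 on the arms and 1 on another Het scaffold, and 0 on U and Uextra. Uextra holds 10412 of the 13745 peaks, but peaks of such width are rare there. It had 1 peak of 5.7 to 6.1 kb (score 198), and U had 2 (scores 72.0 and 116). For the peak of score 276 on 2LHet the count was 0 on the arms and 4 on Uextra, and for that of score 179 it was 0 and 32. The 3LHet peak of score 206 had its 1 look-alike on U. The 2RHet peaks of scores 164 and 145 had 0 on the arms, with 2 and 7 on U and 2 and 3 on Uextra. The single XHet peak had 5 on the arms and 144 on Uextra. Likeness in width and score is no evidence of shared sequence, which was not examined.

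The 2 widest Het peaks scored above the Het median of 17.0 but well below the highest Het score of 611. A peak of 9096 bp on 2LHet, at 260895 to 269990, scored 55.5, and its nearest neighbour, a peak of 208 bp at 299553 to 299760 with a score of 18.2, began 29.6 kb further on. On 2RHet a peak of 9078 bp at 1269708 to 1278785 scored 75.7, with a peak of 308 bp and score 17.3 at 1268666 to 1268973 before it. These were the 2 Het peaks of 9.0 to 9.2 kb, where the arms had 48 with scores of 49.1 to 78.3, and U and Uextra had 0 each. The last peak of 2RHet, at 3282366 to 3288673, was 6308 bp wide and scored 66.0. The widest XHet peak, of 1551 bp at 196036 to 197586, scored 61.6.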

How the data were processed

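The authors deposited 1 list of peaks with positions and a score for each peak. Per the file headers, MACS made the peaks and positions follow FlyBase release 5. The submitters' processing notes name BWA, MACS2, the build BDGP5 and CASAVA (1.7.0.2, also 1.7.0.3). Not given in the sources used here are the threshold, the pooling of replicates and the treatment of reads with several matches. The scale of the deposited score is not stated, and values are set side by side only inside the list. A single list with 1 score per peak cannot show whether a peak recurs between replicates.

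The list was summarised in Python 3.11.15 (pandas 2.3.3 for tables, numpy 2.4.6 for arrays, scipy 1.17.1 for intervals) and plotted with matplotlib 3.10.9. Densities carry 95% exact Poisson intervals and shares 95% Wilson intervals, for counting error only. Groups and runs join neighbours by edge-to-edge gap. The summaries were tested on simulated data with known answers. Named peaks are the 10 with the highest score, the strongest and widest of each scaffold, both of YHet, the largest groups (4, because 3 tied), and those of 9.0 to 9.2 kb or 5.7 to 6.1 kb with their nearest neighbour. Other strong peaks, runs and couples were named after their values were seen. The members, lists and limits were chosen with earlier results of these data known. The gene table at hand is of another release and was not used, so no peak was given a gene or a sequence.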

Additional observations from a re-analysis of the deposited data

How the results depend on the processing

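No paired analysis was possible because no library has a column of its own. For the same reason no library could be left out. Leaving out 2RHet moved the share of the list to 2.57%. At or above the list median score, 27 Het peaks were left, which were 0.392% of such peaks, with 4.70 per Mb, 44.4% with a neighbour within 5 kb, a median spacing of 104209 bp, a median width of 1297 bp, a median score of 104, 59.3% at 100 or more and a rho of width and score of 0.025. Joining peaks within 500 bp gave 3.17% of the list, 35.4 regions per Mb, 46.3% with a neighbour, a median spacing of 13217 bp, a median width of 561 bp and a median score of 19.7, with 24, 106, 97 and 77 regions on 2LHet, 2RHet, 3LHet and 3RHet. The neighbour share was 73.1% at a limit of 2 kb and 87.0% at 10 kb, and the strong share was 6.48% at a score limit of 50 and 1.48% at 200. Each of these settings keeps fewer peaks, joins them or moves a limit by construction. Otherwise the cause was not tested. The other 18 comparisons of a value with its alternative, among them all densities with lengths counted from base 1, stayed within the counting interval or within 1.5 times. Lengths from base 1 still ended at the last peak, so the unknown far end of each scaffold was not tested. Unknown depth and the lack of a library value limit every statement to this list.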

Other observations

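A pattern chosen after the values were seen concerns the cluster on 2LHet that holds 2 strong peaks. A peak of 1021 bp with a score of 37.4 at 300636 to 301656 preceded the strong peak of 618 bp. A small peak of 255 bp with a score of 17.0 lay between them. A peak of 1018 bp with a score of 37.8 at 305403 to 306420 stood directly before the strong peak of 1364 bp. Some of the outermost peaks of the scaffolds were strong or wide: the first peak of XHet scored 159, the last of 2LHet 276, and the last of 2RHet spanned 6308 bp. The first peaks of 2LHet, 2RHet and 3RHet scored 12.1, 8.50 and 8.94, and the last peak of 3RHet scored 23.4. On 3LHet the first and last peaks scored 29.3 and 46.25, at 386 and 297 bp. The last peak of XHet scored 33.4 and that of 2RHet 66.0, while the 2 peaks of YHet, both outermost, scored 89.4 and 102.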
